A study of Bos taurus with 29 samples.

Results

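Cattle oocytes that reached metaphase II after a pre-maturation culture with C-type natriuretic peptide were compared, gene by gene, with oocytes still at the germinal vesicle stage. The compared libraries were the 7 titled CNP_IVM and the 7 titled GV that have a column in the table, 14 of 22 oocytes with values and of 29 labelled; 7 labelled samples were not analysed here. All 11852 genes with at least 1 CPM (counts-per-million, the reads of a gene scaled by the library total) in 6 or more of the 22 columns entered, of 13502 in the table. Every oocyte was of the genotype labelled WT and came from a cumulus-oocyte complex, the oocyte with its coat of follicle cells, aspirated from follicles of FSH-treated donors. GV oocytes were stripped of cumulus cells and frozen with no culture. CNP_IVM oocytes spent 6 h with 200 nM CNP in medium that lacked epidermal growth factor (EGF), then 22 h in maturation medium with EGF and FSH, and were taken when a polar body showed metaphase II. Another group, of 8 oocytes (IVM), had the 22 h alone and is given beside the others where it helps to place a value. No oocytes were cultured for 28 h, or for the first 6 h, without CNP, so stage, CNP and time in culture cannot be told apart in any difference between CNP_IVM and GV oocytes.

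A GV oocyte is a full-grown egg cell held in prophase of its first meiotic division, with a large stock of messenger RNA laid down while it grew and with little or no new transcription. When meiosis resumes, the nucleus breaks down, the spindle forms, the first polar body leaves, and the cell stops again at metaphase II. Meanwhile stored messengers are read, given longer or shorter poly(A) tails, or degraded. C-type natriuretic peptide is made by the follicle wall and holds meiosis back: it binds the receptor NPR2 on cumulus cells, the cyclic GMP they make passes through gap junctions into the oocyte, and there it keeps the phosphodiesterase PDE3A from breaking down the cyclic AMP that maintains the arrest. In pre-maturation culture this brake is applied for some hours so that nucleus and cytoplasm can mature in step.

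Each library was 1 oocyte, with 27610555 to 36698324 reads in GV and 34835906 to 39089848 in CNP_IVM oocytes, with 97.1 to 97.5% of reads in the listed genes. The labels name no donor animal or culture for any oocyte, so each group counts as 1 sample and no test is given: ranges and SDs show how far these oocytes lie apart, not how far animals do. The libraries were primed on poly(A), so a level is a share of the poly(A) RNA that was copied, and the amount of a messenger, the length of its tail and the make-up of everything else in the library could not be separated. GV replicate 9 (GV 9) is a GV oocyte by its title, but its treatment field reads in vitro maturation and its library stood apart. Across genes its rank correlation with the other GV oocytes was 0.76 to 0.79, where those 6 had 0.95 to 0.98 with each other. It had 9381 genes at 1 CPM or more against 11311 to 11798 in those 6 and 9429 to 9834 in CNP_IVM oocytes. Nor was it close to CNP_IVM oocytes, as its rank correlation with CNP_IVM oocytes was 0.55 to 0.58, below the 0.71 to 0.76 of the other GV oocytes. Its rank correlation with IVM oocytes was not computed. Values without GV 9 are given wherever leaving it out moved a difference by over 1.5 times or across the 2-fold line.

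Matured and immature oocytes differed in most of the measured genes, and by far larger factors on the low side than on the high side. The log2 difference used throughout is that of the group mean CPM after 1 CPM was added to each as a pseudocount, so differences of low genes are understated. By it 1818 genes (15.3%) were at least 2-fold higher in CNP_IVM than in GV oocytes, 4977 (42.0%) at least 2-fold lower, and the other 5057 differed by less. In 1302 of the higher genes (11% of those measured) every CNP_IVM oocyte lay above every GV oocyte, and in 3211 of the lower ones (27.1%) every CNP_IVM oocyte lay below. Without GV 9 the counts were 1763 higher (14.9%) and 4796 lower (40.5%), of which 1403 and 4044 did not overlap. Of the 1818 higher genes 1586 remained on their side without it, as did 4633 of the 4977 lower genes, and 4 genes changed side. The genes nearest to the 2-fold line lay at 1.00004 inside and 0.99985 outside it on the higher side, and at -1.0002 inside and -0.9993 outside on the lower side, so the line falls in a continuous range of values.

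The sizes were lopsided. At least 4-fold higher were 162 genes and at least 4-fold lower 2751, at 8-fold the counts were 4 and 1264, and at 32-fold they were 0 and 113. The median of all genes was -0.61, so a list of genes is read below against that value and against the 15.3% and 42.0%, not against 0. How many genes fall on each side depends on the scaling: with trimmed-mean factors (TMM) 3012 were higher and 3960 lower, with quantile normalization 3540 and 3196, and with only genes of at least 10 CPM in 6 columns 1662 and 3009. Of the genes past 2-fold, 26.8% were higher by CPM, 43.2% with TMM, 52.6% with quantile normalization and 35.6% among the more abundant genes, and the median of all genes moved to -0.16 with TMM and 0.14 with quantile normalization. The lopsided sizes remained under each scaling, as 26 genes were at least 8-fold higher and 814 lower with TMM, and 44 and 712 with quantile normalization.

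Read by share of the library, the 1818 higher genes took 16.9% ± 3.07 of reads in GV and 51.0% ± 1.32 in CNP_IVM oocytes (SD between oocytes, n = 7 each), and the 4977 lower genes 45.7% ± 1.76 and 8.26% ± 0.403. Those sides were chosen by the same values, so the shares describe the size of the shift and support nothing. In IVM oocytes the same genes took 38.9% and 13.4%. The 10 most read genes of each oocyte held 8.51% ± 0.985 of GV reads and 14.6% ± 0.717 of CNP_IVM reads. A trio of genes made most of that: BTG4, PTTG1 and TMSB4X together took 2.51% ± 0.698 in GV, 4.82% in IVM and 9.06% ± 0.621 in CNP_IVM oocytes. BTG4, which brings deadenylases to maternal messengers, was at 25421 to 40963 CPM (median 31399) in CNP_IVM and 5675 to 12339 CPM (median 9919) in GV oocytes, a log2 difference of 1.71. PTTG1, securin, which holds back the protease separase until anaphase, was at 27601 to 37674 CPM (median 30165) in CNP_IVM and 1301 to 11580.4 CPM (median 8826) in GV oocytes, a log2 difference of 1.94. TMSB4X, thymosin beta 4, which binds single actin subunits, was at 23608 to 35108 CPM (median 25942) in CNP_IVM and 4461 to 8825 CPM (median 7369) in GV oocytes, a log2 difference of 1.93. In all 3 the groups did not overlap, but with quantile normalization the log2 difference was 0.56 for BTG4 and 0.96 for PTTG1. At the other end stood genes that head the GV library. UBB, a ubiquitin gene, was at 3812 to 8098 CPM (median 6583) in CNP_IVM and 16034 to 27839.6 CPM (median 18388) in GV oocytes, a log2 difference of -1.62. GSTM3, a glutathione transferase, was at 499 to 981 CPM (median 605) in CNP_IVM and 5765 to 13386 CPM (median 9831) in GV oocytes, a log2 difference of -3.91. The peroxide enzyme gene PRDX2 was at 195 to 366 CPM (median 340.1) in CNP_IVM and 2431 to 8431 CPM (median 6294) in GV oocytes, a log2 difference of -4.29. None of these overlapped either.

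**Figure D1:**
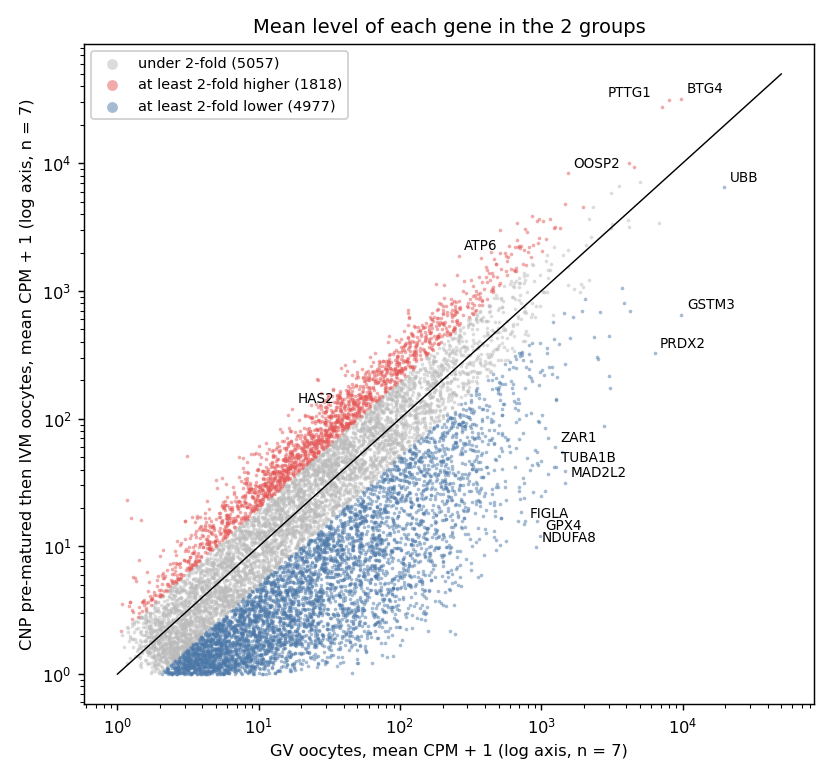
Each point is 1 of 11852 genes, with its mean CPM + 1 over 7 GV oocytes on the horizontal and over 7 CNP_IVM oocytes on the vertical log axis. The line marks equal levels, red points are the 1818 genes at least 2-fold higher and blue points the 4977 at least 2-fold lower. The red band stays close to the line, while blue points reach far below it except at the lowest GV levels.

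The lowest differences belonged to genes of unlike roles. Among genes with a symbol, a mean of 10 CPM or more in either group and no overlap, the 12 lowest were C25H7orf50, NDUFA8, GPX4, ACAA1, ZNRD2, MRPL28, TUBB4B, TMEM11, HRAS, SPRING1, METRNL and EXOSC5, at log2 differences of -6.90 to -5.89. C25H7orf50, an open reading frame gene, was at 0.358 to 1.39 CPM (median 1.26) in CNP_IVM and 58.4 to 344 CPM (median 256) in GV oocytes, a log2 difference of -6.90. EXOSC5, a core subunit of the RNA exosome, was at 0 to 1.99 CPM (median 0.0528) in CNP_IVM and 81.3 to 116 CPM (median 103) in GV oocytes, a log2 difference of -5.89. Pooled over the 7 oocytes of each group EXOSC5 stood at 0.681 CPM (0.585 to 0.789) and 99.01 CPM (97.7 to 100.3), with exact 95% Poisson intervals that cover the counting of reads alone. METRNL, a secreted factor, was at 0 to 0.756 CPM (median 0.256) in CNP_IVM and 42.6 to 131 CPM (median 66.2) in GV oocytes, a log2 difference of -5.89. Across all 3 no CNP_IVM oocyte passed 1.99 CPM and no GV oocyte fell below 42.6 CPM. The 12 highest were CCDC68, DBT, ND6, ATP6, CD2AP, HAS2, RAP2C, AZIN1, ND3, CNOT6L, QSER1 and ND4, at 3.45 down to 2.65. DBT, of branched-chain amino acid breakdown, was at 88.2 to 375 CPM (median 171) in CNP_IVM and 18.8 to 33.9 CPM (median 23.1) in GV oocytes, a log2 difference of 2.98. CD2AP, which ties membrane proteins to actin, was at 26.4 to 70.0 CPM (median 42.0) in CNP_IVM and 0 to 9.30 CPM (median 6.64) in GV oocytes, a log2 difference of 2.81. QSER1, which shields promoters of developmental genes from DNA methylation, was at 37.7 to 60.3 CPM (median 48.1) in CNP_IVM and 0 to 10.8 CPM (median 7.57) in GV oocytes, a log2 difference of 2.67. CCDC68, a centriole protein, leads the list through 1 oocyte: CNP_IVM replicate 5 was at 76.4 CPM and the other 6 at 2.38 to 8.37 CPM.

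**Figure D2:**
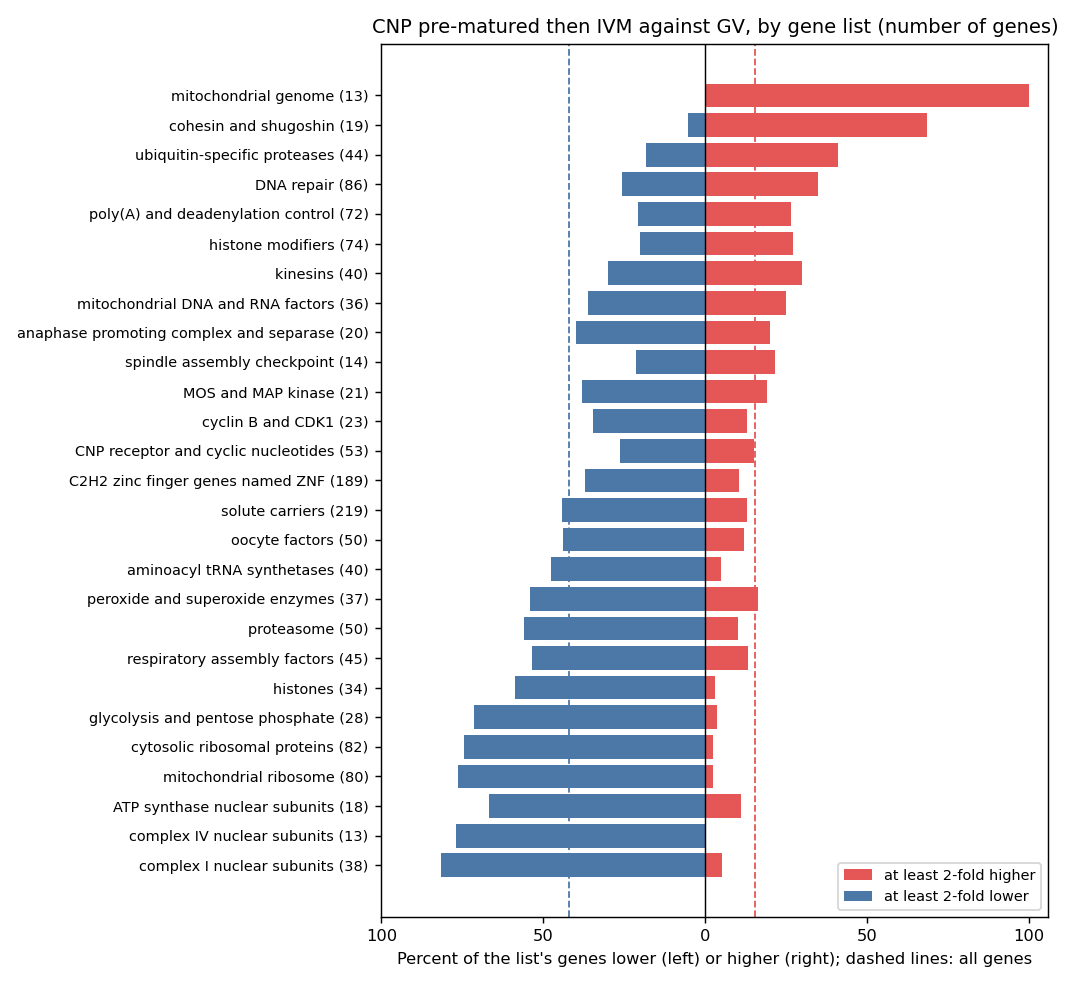
For each gene list (number of genes past the filter) the bars give the percent of its genes at least 2-fold lower (left, blue) and at least 2-fold higher (right, red) in CNP_IVM against GV oocytes, with dashed lines at the 42.0% and 15.3% of all genes. The mitochondrial genome and cohesin lists lie mostly to the right, the nuclear respiratory, ribosomal and glycolysis lists mostly to the left.

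The respiratory chain is built from nuclear and mitochondrial genes, and its messengers split by that origin. All 13 protein genes of the mitochondrial DNA were at least 2-fold higher in CNP_IVM oocytes, with a median log2 difference of 2.56, and in 10 of them the groups did not overlap. Among all genes 15.3% were that much higher. Their summed level was 2277 to 4834 CPM (median 2666) in GV, 2205 to 9414 CPM (median 3699) in IVM and 7908 to 30207 CPM (median 16001) in CNP_IVM oocytes. Every CNP_IVM oocyte lay above every GV oocyte in that sum, but the CNP_IVM oocytes were themselves far apart. The 7 genes of complex I spread from 2.38 to 2.93. ND1, of the membrane arm, was at 872 to 2038 CPM (median 1208) in CNP_IVM and 132 to 362 CPM (median 232) in GV oocytes, a log2 difference of 2.38. ND5, of the same arm, was at medians of 592 CPM in CNP_IVM and 96.2 CPM in GV oocytes, a log2 difference of 2.39. CYTB, the mitochondrial subunit of complex III, was at 1319 to 4434 CPM (median 2922) in CNP_IVM and 395 to 730.2 CPM (median 431) in GV oocytes, a log2 difference of 2.56. The cytochrome oxidase genes had the smallest differences and the groups overlapped in all 3: COX1 was at 1072 to 5767 CPM (median 3402) in CNP_IVM and 314 to 1099.6 CPM (median 654) in GV oocytes, a log2 difference of 2.34. COX2 was at medians of 666 CPM in CNP_IVM and 131 CPM in GV oocytes, a log2 difference of 1.96. COX3 was at medians of 3646 CPM in CNP_IVM and 659 CPM in GV oocytes, a log2 difference of 2.18. In all 3 the overlap came from GV 9, the highest GV oocyte in each, and the lowest CNP_IVM oocyte lay above the other 6. ATP8, which shares bases with ATP6 on this genome, was at 19.05 to 75.7 CPM (median 50.9) in CNP_IVM and 5.26 to 11.1 CPM (median 7.53) in GV oocytes, a log2 difference of 2.58, and reads of such overlapping pairs (ATP8 with ATP6, ND4L with ND4) could be split between them. ND6 lies on the other strand of the mitochondrial DNA and was at 108 to 449 CPM (median 171) in CNP_IVM and 14.7 to 42.1 CPM (median 25.1) in GV oocytes, a log2 difference of 2.93, but no source used here says that strand was counted, so its reads and antisense reads of its neighbours cannot be told apart.

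Nuclear genes of the same complexes lay on the other side. Of 38 nuclear subunits of complex I, which takes electrons from NADH, 2 lay at least 2-fold above GV, 31 at least 2-fold below and 5 in between, with a median log2 difference of -3.02, and their summed level was 7704 to 10005 CPM (median 8918) in GV and 2316 to 3386 CPM (median 2947) in CNP_IVM oocytes. NDUFS7, next to the last iron-sulfur cluster, was at 1.23 to 11.04 CPM (median 3.73) in CNP_IVM and 188 to 327 CPM (median 272) in GV oocytes, a log2 difference of -5.55. The exceptions were small membrane-arm subunits: NDUFB6 was at 462 to 713 CPM (median 579.6) in CNP_IVM and 143 to 215 CPM (median 176) in GV oocytes, a log2 difference of 1.65. NDUFB1 was at medians of 405 CPM in CNP_IVM and 169 CPM in GV oocytes, a log2 difference of 1.31, and neither overlapped. Complex II has no mitochondrial gene. Of its 4 subunits, 0 lay at least 2-fold above GV, 3 at least 2-fold below and 1 in between, with a median log2 difference of -2.39 (-1.78 without GV 9). SDHB, its iron-sulfur subunit, was at 20.8 to 37.2 CPM (median 26.7) in CNP_IVM and 129.8 to 205 CPM (median 139.7) in GV oocytes, a log2 difference of -2.42. The flavoprotein subunit SDHA was at medians of 9.12 CPM in CNP_IVM and 24.2 CPM in GV oocytes, a log2 difference of -2.37, or -1.23 without GV 9, so much of its difference rested on GV 9. Of 9 complex III genes, 1 lay at least 2-fold above GV, 7 at least 2-fold below and 1 in between, with a median log2 difference of -2.65. CYC1, cytochrome c1, was at 0.532 to 4.32 CPM (median 2.06) in CNP_IVM and 52.0 to 128 CPM (median 72.7) in GV oocytes, a log2 difference of -4.74. UQCR10 was at medians of 5.37 CPM in CNP_IVM and 213 CPM in GV oocytes, a log2 difference of -4.83. UQCRH, the hinge protein, sat on the 2-fold line, at 531 to 941 CPM (median 618) in CNP_IVM and 306 to 374 CPM (median 321) in GV oocytes, a log2 difference of 1.01, or 0.998 without GV 9.

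Of 13 nuclear cytochrome oxidase subunits, 0 lay at least 2-fold above GV, 10 at least 2-fold below and 3 in between, with a median log2 difference of -2.15. COX5B was at 33.2 to 59.2 CPM (median 40.9) in CNP_IVM and 788 to 1112 CPM (median 909) in GV oocytes, a log2 difference of -4.38. COX6A1 was at medians of 38.5 CPM in CNP_IVM and 829.7 CPM in GV oocytes, a log2 difference of -4.40. So within complex IV the mitochondrial subunits averaged above their GV level and these nuclear ones below it. Of 18 nuclear ATP synthase genes, 2 lay at least 2-fold above GV, 12 at least 2-fold below and 4 in between, with a median log2 difference of -2.44. ATP5F1D, the delta subunit of the motor, was at 1.63 to 10.5 CPM (median 4.35) in CNP_IVM and 139.6 to 228 CPM (median 167) in GV oocytes, a log2 difference of -4.94. ATP5MC1, 1 of the genes of the membrane ring, was at medians of 20.47 CPM in CNP_IVM and 672 CPM in GV oocytes, a log2 difference of -4.92. Both genes on the higher side encode the peripheral stalk: ATP5PB was at 295 to 507 CPM (median 480.5) in CNP_IVM and 108 to 201 CPM (median 136) in GV oocytes, a log2 difference of 1.67. ATP5PF was at medians of 1206 CPM in CNP_IVM and 406 CPM in GV oocytes, a log2 difference of 1.505, with no overlap in either. Of 45 factors that assemble these complexes, 6 lay at least 2-fold above GV, 24 at least 2-fold below and 15 in between, with a median log2 difference of -1.27 (-0.69 with TMM and -0.18 with quantile normalization), and 2 lay on the higher side without GV 9.

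**Figure D3:**
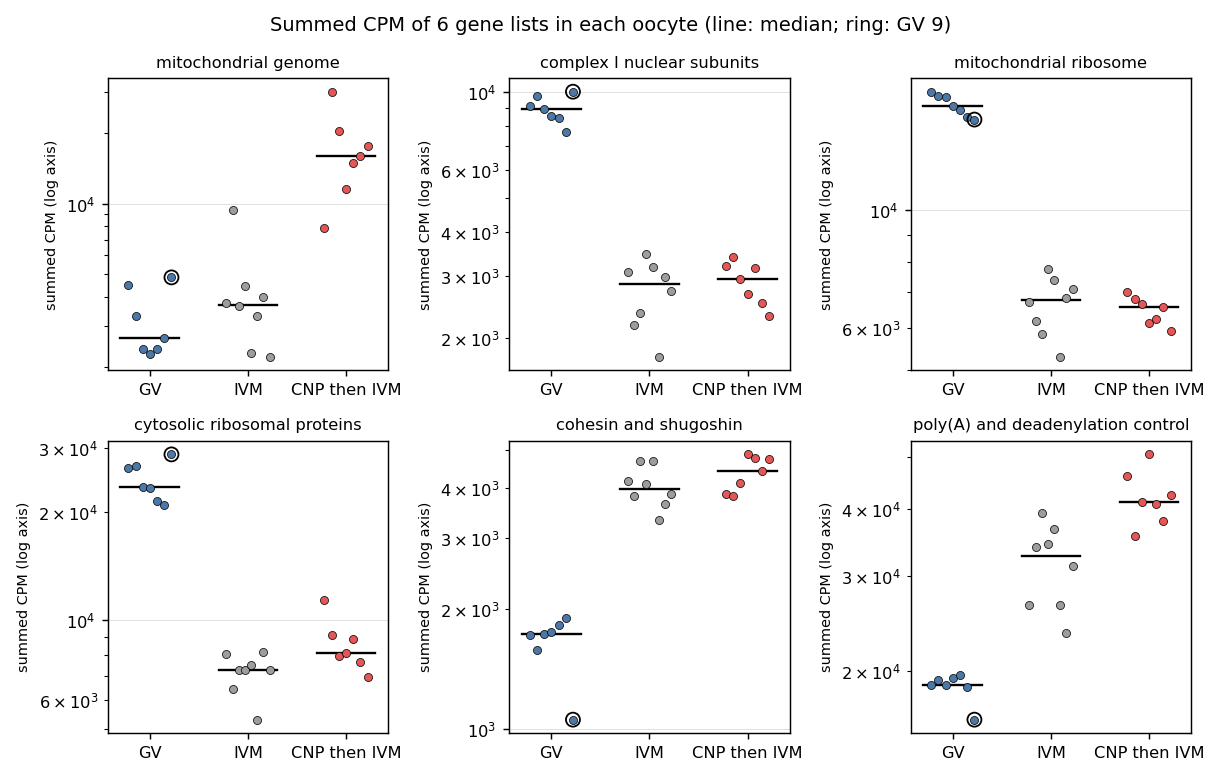
Summed CPM of 6 gene lists (log axes) in each of 7 GV, 8 IVM and 7 CNP_IVM oocytes, with a line at the group median and a ring around GV 9. The mitochondrial genome stands high in CNP_IVM oocytes alone of the 3 groups, apart from 1 IVM oocyte at 9414 CPM, while nuclear complex I and both ribosomal lists are about as low in IVM as in CNP_IVM oocytes.

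Factors that copy, transcribe and translate the mitochondrial genome did not share 1 direction. Of 36, 9 lay at least 2-fold above GV, 13 at least 2-fold below and 14 in between, with a median log2 difference of 0.10 (-0.04 without GV 9), while 14 lay above and 11 below with TMM, and 14 and 8 with quantile normalization. TFB2M, which opens mitochondrial promoters for the polymerase, was at 92.8 to 239 CPM (median 180.3) in CNP_IVM and 20.8 to 38.9 CPM (median 33.3) in GV oocytes, a log2 difference of 2.32. TFAM, which packs mitochondrial DNA, was at 1.65 to 5.05 CPM (median 2.91) in CNP_IVM and 1.99 to 4.44 CPM (median 2.89) in GV oocytes, a log2 difference of 0.00. The mitochondrial RNA polymerase gene POLRMT was at medians of 1.58 CPM in CNP_IVM and 7.40 CPM in GV oocytes, a log2 difference of -1.44, so the groups overlapped in both. SSBP1, which coats single-stranded mitochondrial DNA, was at 7.11 to 15.8 CPM (median 11.8) in CNP_IVM and 125 to 217 CPM (median 179.6) in GV oocytes, a log2 difference of -3.78. PRIMPOL, a primase that restarts forks, was at 399 to 792 CPM (median 589) in CNP_IVM and 152 to 215 CPM (median 203) in GV oocytes, a log2 difference of 1.67. POLDIP2, a partner of its polymerase activity, was at medians of 4.77 CPM in CNP_IVM and 199 CPM in GV oocytes, a log2 difference of -5.25. So factors of the same genome lay high, low and level. Of 80 proteins of the mitochondrial ribosome, 2 lay at least 2-fold above GV, 61 at least 2-fold below and 17 in between, with a median log2 difference of -2.36. MRPL28 was at 0 to 1.70 CPM (median 0.0574) in CNP_IVM and 18.1 to 125 CPM (median 90.3) in GV oocytes, a log2 difference of -5.99. CHCHD1, of the small subunit, was an exception at medians of 495 CPM in CNP_IVM and 118 CPM in GV oocytes, a log2 difference of 1.90. Of 46 import and contact-site genes, 3 lay at least 2-fold above GV, 29 at least 2-fold below and 14 in between, with a median log2 difference of -1.48 (-0.94 with TMM). TIMM17B, of the inner-membrane channel, was at 10.5 to 24.6 CPM (median 16.4) in CNP_IVM and 252 to 930.1 CPM (median 773) in GV oocytes, a log2 difference of -5.29. TOMM6, of the outer-membrane channel, was at medians of 3338 CPM in CNP_IVM and 1044 CPM in GV oocytes, a log2 difference of 1.77. These channel genes stood on opposite sides. Of 36 fusion, fission and mitophagy genes, 3 lay at least 2-fold above GV, 20 at least 2-fold below and 13 in between, with a median log2 difference of -1.36 (-0.94 without GV 9, -0.79 with TMM and -0.92 with quantile normalization). OPA1, which fuses inner membranes, was at 275 to 443 CPM (median 313) in CNP_IVM and 20.8 to 170.1 CPM (median 140.1) in GV oocytes, a log2 difference of 1.38. TMEM11, which shapes them, was at medians of 4.20 CPM in CNP_IVM and 366 CPM in GV oocytes, a log2 difference of -5.96.

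Messengers of the translation machinery were mostly lower. Of 82 cytosolic ribosomal protein genes, 2 lay at least 2-fold above GV, 61 at least 2-fold below and 19 in between, with a median log2 difference of -1.71, and their sum was 20813 to 28823 CPM (median 23432) in GV and 6964 to 11396 CPM (median 8089) in CNP_IVM oocytes. RPL18 was at 15.8 to 31.9 CPM (median 22.2) in CNP_IVM and 447 to 976 CPM (median 789) in GV oocytes, a log2 difference of -4.99. RPL38 was at medians of 3.94 CPM in CNP_IVM and 116 CPM in GV oocytes, a log2 difference of -4.28. The pair of genes on the higher side are paralogs of ordinary ribosomal proteins: RPL22L1 was at 7.28 to 22.3 CPM (median 10.5) in CNP_IVM and 2.32 to 6.19 CPM (median 5.25) in GV oocytes, a log2 difference of 1.31. RPL26L1 was at medians of 937 CPM in CNP_IVM and 378 CPM in GV oocytes, a log2 difference of 1.13. For RPL22L1 group medians gave 0.88, under 2-fold. Ribosomal genes have near-identical copies, so single values in this family are uncertain. Of 69 initiation, elongation and release factors, 16 lay at least 2-fold above GV, 37 at least 2-fold below and 16 in between, with a median log2 difference of -1.22 (-0.90 without GV 9, -0.80 with TMM and -0.59 with quantile normalization). EEF1D, of the elongation factor exchange complex, was at 0 to 4.62 CPM (median 2.81) in CNP_IVM and 151 to 226 CPM (median 166) in GV oocytes, a log2 difference of -5.56. EIF3G was at medians of 3.26 CPM in CNP_IVM and 239 CPM in GV oocytes, a log2 difference of -5.49. EIF4A2, a helicase of the cap complex, went the other way, at 432 to 649 CPM (median 539) in CNP_IVM and 17.1 to 206 CPM (median 148) in GV oocytes, a log2 difference of 1.92. The initiation factors EIF3G and EIF4A2 thus stood on opposite sides. EIF4E1B, the cap-binding protein of oocytes that keeps stored messengers silent, was at 36.2 to 43.6 CPM (median 41.6) in CNP_IVM and 245 to 954 CPM (median 339) in GV oocytes, a log2 difference of -3.29. Of 40 aminoacyl-tRNA synthetase genes, 2 lay at least 2-fold above GV, 19 at least 2-fold below and 19 in between, with a median log2 difference of -0.93, so their lower share was close to the background and their higher share below it. The mitochondrial enzyme CARS2 was at 0.280 to 2.10 CPM (median 1.08) in CNP_IVM and 76.5 to 132 CPM (median 109) in GV oocytes, a log2 difference of -5.62. The cytosolic isoleucine enzyme IARS1 was at medians of 73.9 CPM in CNP_IVM and 23.9 CPM in GV oocytes, a log2 difference of 1.76.

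Protein turnover genes divided by step. Of 50 proteasome genes, 5 lay at least 2-fold above GV, 28 at least 2-fold below and 17 in between, with a median log2 difference of -1.14 (-0.99 without GV 9, -0.58 with TMM and -0.67 with quantile normalization). PSMF1, which binds and inhibits the core particle, was at 0.719 to 2.64 CPM (median 1.07) in CNP_IVM and 81.3 to 121 CPM (median 91.4) in GV oocytes, a log2 difference of -5.41. PSME4, a cap that opens it without ubiquitin, was at medians of 51.3 CPM in CNP_IVM and 10.9 CPM in GV oocytes, a log2 difference of 2.26. Ubiquitin-specific proteases, which take ubiquitin off, stood the other way: of 44, 18 lay at least 2-fold above GV, 8 at least 2-fold below and 18 in between, with a median log2 difference of 0.67, and this list remained at 18 and 8 without GV 9. USP53 was at 86.3 to 217 CPM (median 151) in CNP_IVM and 10.6 to 43.9 CPM (median 32.8) in GV oocytes, a log2 difference of 2.26. USP25 was at medians of 161 CPM in CNP_IVM and 34.3 CPM in GV oocytes, a log2 difference of 2.02. Both lay above their GV range in every CNP_IVM oocyte. Of 33 ubiquitin conjugating enzymes, 3 lay at least 2-fold above GV, 13 at least 2-fold below and 17 in between, with a median log2 difference of -0.38 (0.21 with TMM). Of 105 cullin ligase subunits and F-box proteins, 14 lay at least 2-fold above GV, 44 at least 2-fold below and 47 in between, with a median log2 difference of -0.65 (0.11 with quantile normalization), while 28 lay above and 37 below with TMM, and 33 and 26 with quantile normalization, so by CPM their lower share equals the background. Of 93 chaperones, 11 lay at least 2-fold above GV, 35 at least 2-fold below and 47 in between, with a median log2 difference of -0.64. HSP90B1, the chaperone of the endoplasmic reticulum, was at 657 to 1246 CPM (median 857) in CNP_IVM and 136 to 295 CPM (median 241) in GV oocytes, a log2 difference of 1.92.

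Genes against peroxides included several of the most read messengers of GV oocytes. Of 37 peroxide and superoxide enzymes, 6 lay at least 2-fold above GV, 20 at least 2-fold below and 11 in between, with a median log2 difference of -1.28 (-0.88 without GV 9, -0.77 with TMM and -0.35 with quantile normalization). GPX4, the selenoenzyme that reduces lipid peroxides, was at 7.62 to 20.3 CPM (median 8.68) in CNP_IVM and 306 to 1380.5 CPM (median 1038) in GV oocytes, a log2 difference of -6.34. Of 21 selenoproteins and genes of selenocysteine synthesis, 3 lay at least 2-fold above GV, 11 at least 2-fold below and 7 in between, with a median log2 difference of -1.05 (-0.84 without GV 9, -0.49 with TMM and -0.16 with quantile normalization), while 7 lay above and 9 below with TMM, and 8 and 7 with quantile normalization. Among the makers, SEPSECS, which forms selenocysteine on its tRNA, was at 49.8 to 98.8 CPM (median 62.3) in CNP_IVM and 15.3 to 27.7 CPM (median 24.2) in GV oocytes, a log2 difference of 1.47. SECISBP2L, a reader of the selenocysteine signal, was at medians of 59.2 CPM in CNP_IVM and 23.9 CPM in GV oocytes, a log2 difference of 1.31. So SEPSECS and SECISBP2L lay above GV, while the selenoprotein gene GPX4 lay below.

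Of 28 genes of glycolysis and the pentose phosphate pathway, 1 lay at least 2-fold above GV, 20 at least 2-fold below and 7 in between, with a median log2 difference of -1.75 (-1.43 without GV 9, -1.20 with TMM and -1.13 with quantile normalization). Without GV 9, 1 lay above and 16 below, while 4 lay above and 15 below with TMM, as with quantile normalization. ENO1, enolase, was at 2.41 to 20.9 CPM (median 6.95) in CNP_IVM and 169 to 484 CPM (median 226) in GV oocytes, a log2 difference of -4.86. GAPDH was at medians of 85.4 CPM in CNP_IVM and 1033 CPM in GV oocytes, a log2 difference of -3.64. LDHB, a lactate dehydrogenase, was at medians of 11.46 CPM in CNP_IVM and 313 CPM in GV oocytes, a log2 difference of -4.53. LDHA, its partner, was at 182 to 318 CPM (median 220.4) in CNP_IVM and 679 to 1431 CPM (median 838) in GV oocytes, a log2 difference of -2.06. The gene on the higher side was SLC16A1, which carries pyruvate and lactate through the cell membrane, at 97.7 to 160.3 CPM (median 132) in CNP_IVM and 28.1 to 57.7 CPM (median 48.9) in GV oocytes, a log2 difference of 1.45. Cattle oocytes use pyruvate made by cumulus cells more than glucose. The enzymes of glycolysis were thus low while this carrier was high. Of 38 citric acid cycle and pyruvate genes, 6 lay at least 2-fold above GV, 18 at least 2-fold below and 14 in between, with a median log2 difference of -0.72. MDH2 was at medians of 9.89 CPM in CNP_IVM and 447 CPM in GV oocytes, a log2 difference of -5.28. Of 43 genes of fatty acid oxidation and lipid droplets, 3 lay at least 2-fold above GV, 22 at least 2-fold below and 18 in between, with a median log2 difference of -1.02 (-0.63 with TMM and -0.49 with quantile normalization). ACAA1, the peroxisomal thiolase, was at 0.153 to 3.96 CPM (median 0.488) in CNP_IVM and 113 to 213 CPM (median 148) in GV oocytes, a log2 difference of -6.18. ACSL3, which activates fatty acids at lipid droplets, was at medians of 224 CPM in CNP_IVM and 71.8 CPM in GV oocytes, a log2 difference of 1.47. Of 14 polyamine genes, 3 lay at least 2-fold above GV, 6 at least 2-fold below and 5 in between, with a median log2 difference of -0.69. These shares, 21.4% and 42.9%, were near the 15.3% and 42.0% of all genes. ODC1, which makes putrescine, was at 1243 to 2337 CPM (median 1782) in CNP_IVM and 481 to 767 CPM (median 517) in GV oocytes, a log2 difference of 1.66. AZIN1, which frees ODC1 from its inhibitor antizyme, was at medians of 105 CPM in CNP_IVM and 16.9 CPM in GV oocytes, a log2 difference of 2.73. ATP13A3, a polyamine transporter, was at 10.3 to 27.1 CPM (median 21.3) in CNP_IVM and 2.10 to 7.69 CPM (median 4.60) in GV oocytes, a log2 difference of 1.98. So the enzyme, its protector and a transporter were all on the higher side. Downstream, SRM, spermidine synthase, was at 1.06 to 2.997 CPM (median 2.07) in CNP_IVM and 44.9 to 102 CPM (median 64.7) in GV oocytes, a log2 difference of -4.49. DHPS, which puts spermidine onto a translation factor, was at medians of 16.1 CPM in CNP_IVM and 550.3 CPM in GV oocytes, a log2 difference of -4.76. In none of these 5 did the groups overlap.

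Genes of the pathway that CNP acts on were mostly under 2-fold. NPPC, the CNP gene, was not analysed here. Of 53 genes of cyclic nucleotide signalling past the filter, of 62 in the table, 8 lay at least 2-fold above GV, 14 at least 2-fold below and 31 in between, with a median log2 difference of -0.30 (0.22 with TMM and 0.58 with quantile normalization), while 12 lay above and 8 below with TMM, and 19 and 6 with quantile normalization. NPR2, the CNP receptor of cumulus cells, was near the lower limit of measurement, at 0.103 to 1.63 CPM (median 0.968) in CNP_IVM and 0.0545 to 5.94 CPM (median 2.65) in GV oocytes, a log2 difference of -0.83. PDE3A, the phosphodiesterase that ends the arrest, was at 14.1 to 30.9 CPM (median 26.2) in CNP_IVM and 0.0272 to 13.8 CPM (median 7.59) in GV oocytes, a log2 difference of 1.51. PDE5A, which breaks down cyclic GMP, was at medians of 58.8 CPM in CNP_IVM and 27.01 CPM in GV oocytes, a log2 difference of 1.302. PRKG1, a cyclic GMP-dependent kinase, was at 65.9 to 173 CPM (median 107) in CNP_IVM and 37.2 to 62.99 CPM (median 51.5) in GV oocytes, a log2 difference of 1.05. AKAP11, an anchor of the cyclic AMP-dependent kinase, was at 207 to 265 CPM (median 236) in CNP_IVM and 5.18 to 59.0 CPM (median 42.1) in GV oocytes, a log2 difference of 2.49. In these 4 no CNP_IVM oocyte fell within the GV range. GPR3, a receptor that maintains cyclic AMP in the arrested oocyte, was at 0.0793 to 4.82 CPM (median 2.13) in CNP_IVM and 2.59 to 18.1 CPM (median 3.63) in GV oocytes, a log2 difference of -1.22, or -0.80 without GV 9. ADCY5, an adenylyl cyclase, was at 0 to 3.33 CPM (median 0.336) in CNP_IVM and 8.27 to 24.3 CPM (median 19.02) in GV oocytes, a log2 difference of -3.34. GJA4, connexin 37, which forms the oocyte's side of the gap junctions with cumulus cells, was at 4.85 to 23.3 CPM (median 10.4) in CNP_IVM and 31.6 to 972 CPM (median 57.5) in GV oocytes, a log2 difference of -3.97, or -2.25 without GV 9.

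Meiotic division is driven by cyclin B bound to CDK1, and the list of 23 such genes with their kinases and phosphatases held members on both sides: 3 lay at least 2-fold above GV, 8 at least 2-fold below and 12 in between, with a median log2 difference of -0.54, while 7 lay above and 4 below with TMM, and 3 and 6 with quantile normalization. CCNB1, cyclin B1, was at 1959 to 2453 CPM (median 2224) in CNP_IVM and 809.7 to 1458 CPM (median 1249) in GV oocytes, a log2 difference of 0.84. CCNB2, cyclin B2, was at medians of 594 CPM in CNP_IVM and 1757 CPM in GV oocytes, a log2 difference of -1.41. So the cyclins parted: every CNP_IVM oocyte lay above every GV oocyte for CCNB1 and below every one for CCNB2. With TMM factors the log2 difference of CCNB2 was -0.87, under 2-fold. CDK1 was at 26.1 to 46.4 CPM (median 37.8) in CNP_IVM and 106.1 to 174 CPM (median 149) in GV oocytes, a log2 difference of -1.88. CKS2, a small subunit that docks on it, was at medians of 3837 CPM in CNP_IVM and 1043 CPM in GV oocytes, a log2 difference of 1.93. The kinase and its docking subunit thus stood on opposite sides. WEE2, the oocyte kinase that holds CDK1 inactive, was at 875 to 1291 CPM (median 1085) in CNP_IVM and 488 to 838 CPM (median 602) in GV oocytes, a log2 difference of 0.79. CDC25A, a phosphatase that activates it, was at 3.67 to 13.9 CPM (median 7.57) in CNP_IVM and 22.3 to 87.9 CPM (median 27.4) in GV oocytes, a log2 difference of -2.02. WEE2, a brake on CDK1, thus lay above its GV range and CDC25A, an activator, below it. Of 21 genes of the MOS and MAP kinase pathway, which keeps the egg at metaphase II, 4 lay at least 2-fold above GV, 8 at least 2-fold below and 9 in between, with a median log2 difference of -0.50 (0.10 with TMM and 0.28 with quantile normalization), while 7 lay above and 7 below with TMM, and 6 and 5 with quantile normalization. MOS was at 523 to 1627 CPM (median 831) in CNP_IVM and 1422 to 4283 CPM (median 1778) in GV oocytes, a log2 difference of -1.24, or -0.95 without GV 9, so its call rests on GV 9 at 4283 CPM. FBXO43, known as EMI2, and FBXO5, known as EMI1, both hold the anaphase-promoting complex (APC) in check. FBXO43 was at 91.9 to 167 CPM (median 152) in CNP_IVM and 28.2 to 53.0 CPM (median 40.2) in GV oocytes, a log2 difference of 1.86. FBXO5 was at medians of 1307 CPM in CNP_IVM and 481 CPM in GV oocytes, a log2 difference of 1.63.

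The APC marks securin and cyclin B for destruction. Of its 20 subunits, activators and targets, 4 lay at least 2-fold above GV, 8 at least 2-fold below and 8 in between, with a median log2 difference of -0.06 (0.46 with TMM and 0.17 with quantile normalization), while 8 lay above and 6 below with TMM, and 6 and 5 with quantile normalization. CDC27, a core subunit, was at 491 to 719.7 CPM (median 573) in CNP_IVM and 97.5 to 214 CPM (median 175) in GV oocytes, a log2 difference of 1.78. ANAPC13, a small one, was at medians of 31.5 CPM in CNP_IVM and 351 CPM in GV oocytes, a log2 difference of -3.42. The checkpoint that holds the APC until chromosomes are attached had 14 genes, of which 3 lay at least 2-fold above GV, 3 at least 2-fold below and 8 in between, with a median log2 difference of -0.43 (0.12 with TMM), while 5 lay above and 3 below with TMM, and 4 and 3 with quantile normalization. BUB1B was at 202 to 257 CPM (median 209) in CNP_IVM and 8.37 to 89.0 CPM (median 80.5) in GV oocytes, a log2 difference of 1.66. KNL1, its kinetochore platform, was at medians of 186 CPM in CNP_IVM and 61.5 CPM in GV oocytes, a log2 difference of 1.70. So the kinase and its platform lay on the higher side. On the lower side MAD1L1 was at 1.70 to 6.95 CPM (median 3.10) in CNP_IVM and 38.9 to 255 CPM (median 119.8) in GV oocytes, a log2 difference of -5.04. BUB3 was at medians of 333 CPM in CNP_IVM and 1104 CPM in GV oocytes, a log2 difference of -1.75. The largest difference was that of MAD2L2, a relative of MAD2 known for DNA damage tolerance and for binding APC activators, at 14.6 to 52.9 CPM (median 28.0) in CNP_IVM and 1031 to 1995 CPM (median 1519.5) in GV oocytes, a log2 difference of -5.56. These 5 did not overlap.

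Cohesin, the ring that holds sister chromatids together from before birth until anaphase, was the nuclear gene list most on the higher side of those named here: of 19 cohesin and shugoshin genes, 13 lay at least 2-fold above GV, 1 at least 2-fold below and 5 in between, with a median log2 difference of 1.69. Its summed level was 1057 to 1892 CPM (median 1735) in GV and 3823 to 4863 CPM (median 4409) in CNP_IVM oocytes. The core subunit SMC3 was at 908 to 1272 CPM (median 1124) in CNP_IVM and 30.2 to 281 CPM (median 237) in GV oocytes, a log2 difference of 2.45. RAD21, the cleavable link of the ring, was at medians of 266 CPM in CNP_IVM and 66.0 CPM in GV oocytes, a log2 difference of 2.04. STAG1, an accessory subunit of cohesin, was at medians of 30.4 CPM in CNP_IVM and 4.36 CPM in GV oocytes, a log2 difference of 2.40. These cohesin subunits thus shared 1 direction. ESCO2, which acetylates SMC3, was at 355 to 1144 CPM (median 778) in CNP_IVM and 72.0 to 222 CPM (median 197) in GV oocytes, a log2 difference of 1.95. SGO2, the shugoshin that guards centromeric cohesin in meiosis, was at 195 to 269 CPM (median 239.6) in CNP_IVM and 1.72 to 113 CPM (median 77.5) in GV oocytes, a log2 difference of 1.69. The list's lower member was PLK1, a kinase that loosens arm cohesin, at 24.9 to 44.97 CPM (median 33.3) in CNP_IVM and 139 to 408 CPM (median 216) in GV oocytes, a log2 difference of -2.76. The counts of 13 higher and 1 lower were the same without GV 9.

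Around the spindle the counts on each side moved with the scaling. Of 37 centromere and kinetochore genes, 8 lay at least 2-fold above GV, 11 at least 2-fold below and 18 in between, with a median log2 difference of 0.13, while 16 lay above and 9 below with TMM, and 15 and 9 with quantile normalization. CENPK was at medians of 243 CPM in CNP_IVM and 58.3 CPM in GV oocytes, a log2 difference of 2.01. The kinetochore motor CENPE was at medians of 658 CPM in CNP_IVM and 209.8 CPM in GV oocytes, a log2 difference of 1.67. Of 40 kinesins, 12 lay at least 2-fold above GV, 12 at least 2-fold below and 16 in between, with a median log2 difference of 0.15, while 17 lay above and 11 below with TMM, and 17 and 11 with quantile normalization. By CPM 9 lay above and 11 below without GV 9. Of 17 aurora and polo kinase genes with their partners, 3 lay at least 2-fold above GV, 1 at least 2-fold below and 13 in between, with a median log2 difference of 0.38, while 8 lay above and 1 below with TMM, and 6 and 2 with quantile normalization. TPX2, which activates aurora A on microtubules, was at 1719 to 2434 CPM (median 1886) in CNP_IVM and 236 to 782 CPM (median 632) in GV oocytes, a log2 difference of 1.69. BORA, which helps aurora A to activate PLK1, was at medians of 705 CPM in CNP_IVM and 349 CPM in GV oocytes, a log2 difference of 1.22. AURKA itself was at 3101 to 3839.6 CPM (median 3362) in CNP_IVM and 5826 to 9106 CPM (median 6603) in GV oocytes, a log2 difference of -0.995. The activators of aurora A were higher while AURKA itself was at the 2-fold line on the lower side. Of 71 tubulins and spindle pole genes, 19 lay at least 2-fold above GV, 24 at least 2-fold below and 28 in between, with a median log2 difference of 0.00 (-0.08 without GV 9), while 23 lay above and 14 below with TMM, and 27 and 16 with quantile normalization. The tubulin genes TUBB4B and TUBA1B were among the lowest, TUBB4B at 3.65 to 6.30 CPM (median 4.99) in CNP_IVM and 237 to 707 CPM (median 309.9) in GV oocytes, a log2 difference of -5.99. TUBA1B was at medians of 38.7 CPM in CNP_IVM and 1272 CPM in GV oocytes, a log2 difference of -4.93. Tubulin genes are close copies that may share reads.

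Stored messengers are silenced, read or removed through their poly(A) tails. Of 72 genes of poly(A) and deadenylation control, 19 lay at least 2-fold above GV, 15 at least 2-fold below and 38 in between, with a median log2 difference of 0.51, while 38 lay above and 13 below with TMM, and 40 and 11 with quantile normalization. The deadenylases CNOT6L and CNOT7 were on the higher side: CNOT6L was at 179 to 348 CPM (median 264) in CNP_IVM and 18.7 to 50.2 CPM (median 40.6) in GV oocytes, a log2 difference of 2.68. CNOT7 was at medians of 438 CPM in CNP_IVM and 117 CPM in GV oocytes, a log2 difference of 1.89. PAN3, of the other deadenylase complex, was at 69.0 to 135 CPM (median 80.5) in CNP_IVM and 11.4 to 26.9 CPM (median 17.1) in GV oocytes, a log2 difference of 2.33. With BTG4 above, the adaptor and these enzymes lay above GV in every CNP_IVM oocyte. NANOS1, a repressor that binds the deadenylase complex, was at 0.728 to 3.45 CPM (median 1.09) in CNP_IVM and 30.2 to 131 CPM (median 60.1) in GV oocytes, a log2 difference of -4.78. ZAR1, which stores messengers in the growing oocyte, was at medians of 57.8 CPM in CNP_IVM and 995 CPM in GV oocytes, a log2 difference of -4.38. DAZL, which promotes translation of stored messengers, was at 33.1 to 242 CPM (median 75.3) in CNP_IVM and 0.218 to 31.5 CPM (median 25.97) in GV oocytes, a log2 difference of 2.11. Of 41 genes of later decay and of adenosine methylation, 11 lay at least 2-fold above GV, 12 at least 2-fold below and 18 in between, with a median log2 difference of -0.21 (0.28 with TMM and 0.47 with quantile normalization), while 14 lay above and 11 below with TMM, and 15 and 9 with quantile normalization. The decapping cofactor DCP1A was at 49.7 to 91.9 CPM (median 64.0) in CNP_IVM and 0 to 22.2 CPM (median 17.8) in GV oocytes, a log2 difference of 1.98. XRN1, which digests decapped RNA, was at medians of 146 CPM in CNP_IVM and 37.0 CPM in GV oocytes, a log2 difference of 1.98. The exosome, which digests from the other end, had EXOSC4 at 1.64 to 7.96 CPM (median 3.76) in CNP_IVM and 101.0 to 293 CPM (median 257) in GV oocytes, a log2 difference of -5.52 beside EXOSC5 above.

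**Figure D4:**
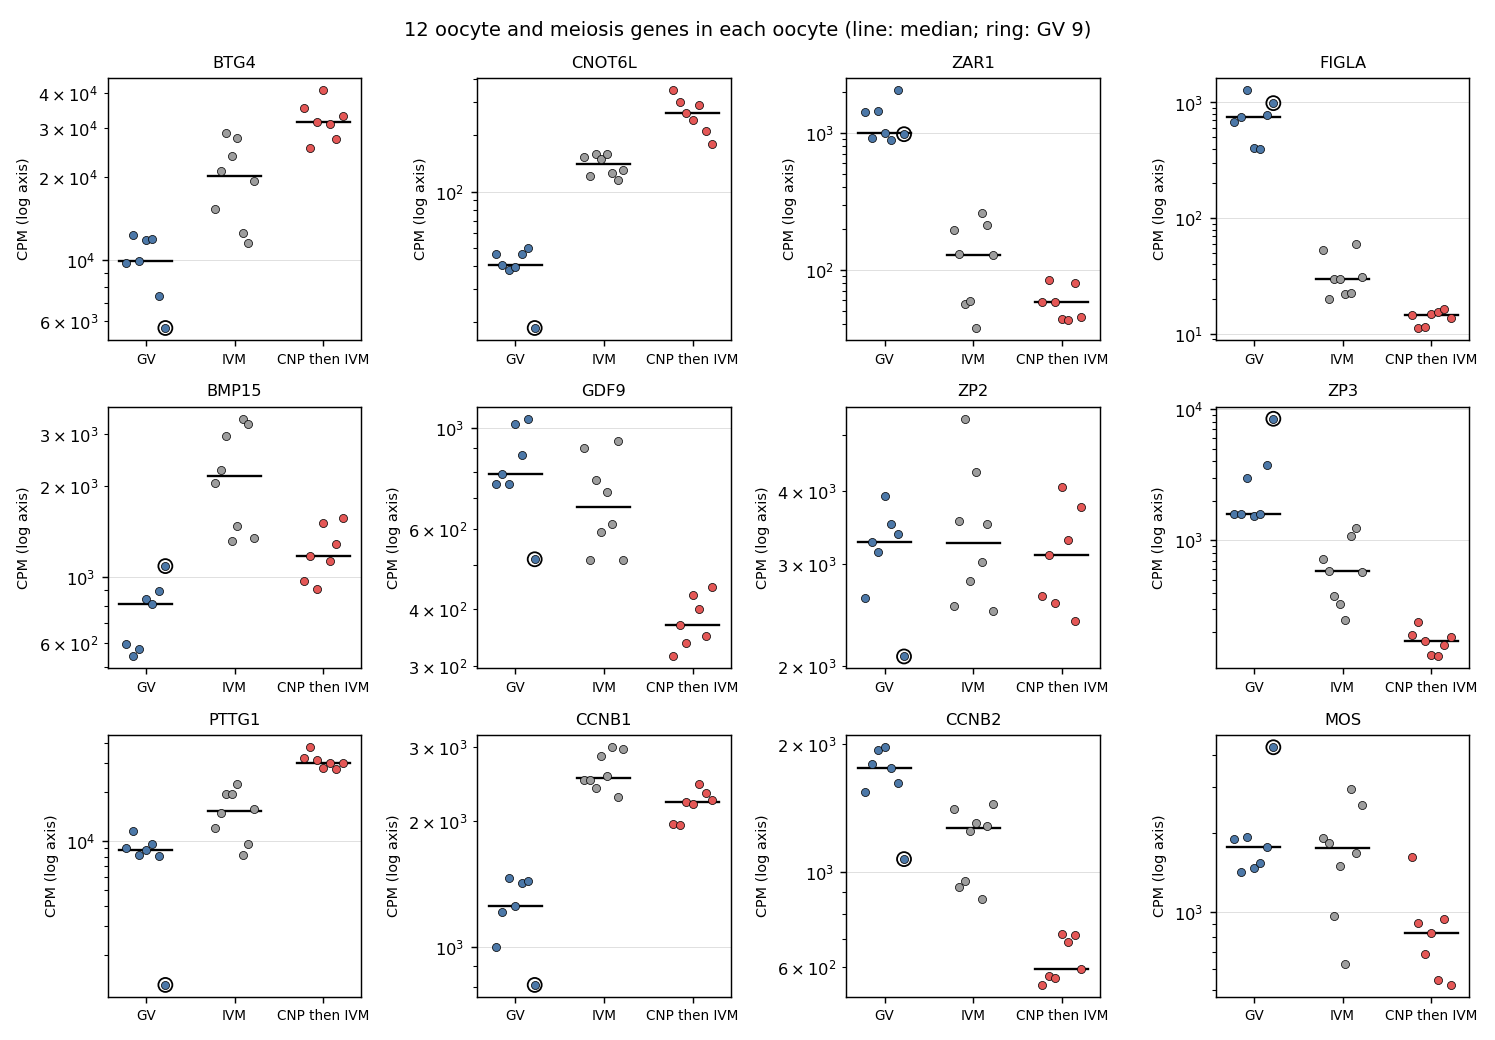
CPM of 12 oocyte and meiosis genes (log axes) in each of 7 GV, 8 IVM and 7 CNP_IVM oocytes, with a line at the group median and a ring around GV 9. BTG4, CNOT6L and PTTG1 are highest and ZAR1, FIGLA and ZP3 lowest in CNP_IVM oocytes, ZP2 is alike in all groups, and GV 9 is the highest or lowest GV oocyte for all but ZAR1 and FIGLA.

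Genes that mark the oocyte itself went several ways. All 20 oocyte markers averaged at least 1 CPM in both groups. That bar is low, as 19 of 23 cumulus and granulosa markers passed it in GV and 15 in CNP_IVM oocytes. It does not by itself tell the cell type. The oocyte markers summed to 29389.5 to 34279.5 CPM (median 31958) in GV and 41236 to 58392 CPM (median 46856) in CNP_IVM oocytes. BTG4 alone went from a mean of 9807 CPM in GV to 32075 CPM in CNP_IVM oocytes. By gene, 3 of the 20 lay at least 2-fold above GV, 10 at least 2-fold below and 7 in between. The median log2 difference was -0.98 (-0.45 with TMM). Of 50 oocyte factor genes, 6 lay at least 2-fold above GV, 22 at least 2-fold below and 22 in between, with a median log2 difference of -0.79, a lower share close to the background. FIGLA, which switches on zona and other oocyte genes during growth, was at 11.3 to 16.5 CPM (median 14.6) in CNP_IVM and 397 to 1273 CPM (median 746) in GV oocytes, a log2 difference of -5.65. NOBOX, another growth-phase transcription factor, was at medians of 3.69 CPM in CNP_IVM and 57.6 CPM in GV oocytes, a log2 difference of -3.43. The zona pellucida genes, which code for the egg coat, parted: ZP2 was at 2391 to 4061 CPM (median 3103) in CNP_IVM and 2077 to 3933 CPM (median 3272) in GV oocytes, a log2 difference of -0.01. ZP3 was at medians of 169.8 CPM in CNP_IVM and 1593 CPM in GV oocytes, a log2 difference of -4.14. ZP4 was at medians of 443 CPM in CNP_IVM and 3121 CPM in GV oocytes, a log2 difference of -2.76. The groups overlapped fully for ZP2 and not at all for the other pair. Members of the subcortical maternal complex, which embryos need for the first cleavages, were not all alike: NLRP5 was at 13.9 to 33.9 CPM (median 22.1) in CNP_IVM and 106.1 to 165 CPM (median 142) in GV oocytes, a log2 difference of -2.50. TLE6 was at medians of 30.6 CPM in CNP_IVM and 140.3 CPM in GV oocytes, a log2 difference of -2.58. PADI6 was at medians of 19.5 CPM in CNP_IVM and 194 CPM in GV oocytes, a log2 difference of -3.81, or -3.23 without GV 9. OOEP overlapped between groups, at 606 to 1030 CPM (median 743) in CNP_IVM and 752 to 1074 CPM (median 1018) in GV oocytes. The secreted growth factors GDF9 and BMP15, with which oocytes steer their cumulus cells, lay on either side of 0. GDF9 was at 315 to 447 CPM (median 369) in CNP_IVM and 514 to 1045 CPM (median 789) in GV oocytes, a log2 difference of -1.12, and -0.57 with TMM factors. BMP15 was at 907 to 1567 CPM (median 1176) in CNP_IVM and 542 to 1085 CPM (median 809.7) in GV oocytes, a log2 difference of 0.67, with overlap. OOSP2, a secreted oocyte protein of the most read genes, was at 6072 to 11555 CPM (median 8913) in CNP_IVM and 387 to 1867 CPM (median 1773) in GV oocytes, a log2 difference of 2.45.

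Among genes that keep and mark the genome, shares on the higher side were 34.9% for DNA repair and 27.03% for histone-modifying enzymes, against 15.3% of all genes. Of 86 DNA repair genes, 30 lay at least 2-fold above GV, 22 at least 2-fold below and 34 in between, with a median log2 difference of 0.45 (0.35 without GV 9). Without GV 9, 24 lay above and 22 below, where 14.9% of all genes lay above. LIG4, which seals broken DNA ends, was at 22.6 to 54.1 CPM (median 35.9) in CNP_IVM and 2.18 to 10.05 CPM (median 7.13) in GV oocytes, a log2 difference of 2.22. Of 74 histone-modifying enzymes, 20 lay at least 2-fold above GV, 15 at least 2-fold below and 39 in between, with a median log2 difference of 0.28. Of 15 DNA methylation genes, 4 lay at least 2-fold above GV, 1 at least 2-fold below and 10 in between, with a median log2 difference of 0.35. Most of these were under 2-fold. DNMT1, which copies methylation marks, was at 704 to 890.1 CPM (median 811) in CNP_IVM and 37.3 to 242 CPM (median 209.7) in GV oocytes, a log2 difference of 2.08. DPPA3, which shields the maternal marks after fertilization, was at medians of 4200.2 CPM in CNP_IVM and 1615 CPM in GV oocytes, a log2 difference of 1.68. UHRF2, a reader of these marks, was at 526 to 592 CPM (median 563) in CNP_IVM and 91.6 to 271 CPM (median 209.9) in GV oocytes, a log2 difference of 1.49. All 3 lay above every GV oocyte. Of 52 replication genes, 15 lay at least 2-fold above GV, 16 at least 2-fold below and 21 in between, with a median log2 difference of -0.03 (0.51 with TMM and 0.38 with quantile normalization), while 17 lay above and 16 below with TMM, and 19 and 16 with quantile normalization. The sliding clamp PCNA was at medians of 3095 CPM in CNP_IVM and 895 CPM in GV oocytes, a log2 difference of 1.99.

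Histone genes lay mostly low. Of 57 in the table, 34 passed the filter, of which 1 lay at least 2-fold above GV, 20 at least 2-fold below and 13 in between, with a median log2 difference of -1.29 (-0.89 with TMM and -0.45 with quantile normalization). The gene on the higher side was H3-3A, a replacement histone whose messenger carries an ordinary poly(A) tail, at 2207 to 2904 CPM (median 2546) in CNP_IVM and 476 to 765 CPM (median 688) in GV oocytes, a log2 difference of 1.90. Messengers of replication histones mostly lack a poly(A) tail, so a library primed on poly(A) holds only their tailed forms. Of these genes 9, in 3 sets, had identical values in every oocyte, so their reads were shared between copies, and they cannot be read as separate genes. CASP8AP2, a factor of histone gene expression, was at 216 to 417 CPM (median 291) in CNP_IVM and 2.04 to 105 CPM (median 66.8) in GV oocytes, a log2 difference of 2.28. Of the transcription genes 40.8% were lower by CPM, near the share of all genes. Of 98 genes of RNA polymerases II and III and mediator, 18 lay at least 2-fold above GV, 40 at least 2-fold below and 40 in between, with a median log2 difference of -0.43 (0.11 with TMM and 0.19 with quantile normalization), while 33 lay above and 31 below with TMM, and 31 and 30 with quantile normalization. POLR2G, a stalk subunit of RNA polymerase II, was at 8.68 to 24.2 CPM (median 12.4) in CNP_IVM and 297 to 1029 CPM (median 785) in GV oocytes, a log2 difference of -5.60. MED13, of the mediator kinase module, was at medians of 48.5 CPM in CNP_IVM and 9.27 CPM in GV oocytes, a log2 difference of 2.51. Of 189 zinc finger genes named ZNF, 20 lay at least 2-fold above GV, 70 at least 2-fold below and 99 in between, with a median log2 difference of -0.52 (0.42 with quantile normalization), while 44 lay above and 53 below with TMM, and 62 and 37 with quantile normalization. Of 79 spliceosome genes, 10 lay at least 2-fold above GV, 20 at least 2-fold below and 49 in between, with a median log2 difference of 0.00 (0.10 without GV 9, 0.58 with TMM and 0.42 with quantile normalization), while 30 lay above and 13 below with TMM, and 21 and 12 with quantile normalization. SNRPF, a core protein of splicing particles, was at 1752 to 3124 CPM (median 2245) in CNP_IVM and 291 to 707 CPM (median 623) in GV oocytes, a log2 difference of 1.94.

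In 3 of 6 small families, chosen after their values were seen, members lay past 2-fold on both sides. Of the early-endosome GTPases, RAB5C was at 2.91 to 9.93 CPM (median 6.30) in CNP_IVM and 102 to 156 CPM (median 122.7) in GV oocytes, a log2 difference of -4.15. RAB5A was at medians of 30.6 CPM in CNP_IVM and 12.9 CPM in GV oocytes, a log2 difference of 1.44. RAB5B was at medians of 48.5 CPM in CNP_IVM and 40.3 CPM in GV oocytes, a log2 difference of 0.21. The 3 thus lay low, high and level. Among ARF GTPases, which recruit vesicle coats, ARF4 was at 1119.9 to 2317 CPM (median 1814) in CNP_IVM and 277 to 483 CPM (median 370.2) in GV oocytes, a log2 difference of 2.27. The others were lower or overlapped, with ARF3 at a log2 difference of -3.65, ARF6 at -3.06, ARF1 at -0.87 and ARF5 at -0.04, and the sum was 955 ± 322 CPM in GV and 2134 ± 374 CPM in CNP_IVM oocytes (mean ± SD between oocytes, n = 7 each).

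Of the kinases below MOS, MAP2K2 was at 0.819 to 3.56 CPM (median 2.23) in CNP_IVM and 19.9 to 165 CPM (median 35.5) in GV oocytes, a log2 difference of -4.09, or -3.48 without GV 9. MAP2K1 was at medians of 218 CPM in CNP_IVM and 154 CPM in GV oocytes, a log2 difference of 0.54, with the sum at 211 ± 63.04 CPM in GV and 232 ± 20.4 CPM in CNP_IVM oocytes. ATG2A and ATG2B, which move lipids to growing autophagosomes, also parted: ATG2A was at 0.257 to 2.04 CPM (median 1.45) in CNP_IVM and 3.59 to 140.5 CPM (median 23.9) in GV oocytes, a log2 difference of -4.17, or -3.36 without GV 9. ATG2B was at medians of 11.97 CPM in CNP_IVM and 3.0003 CPM in GV oocytes, a log2 difference of 1.74. The type II topoisomerases, which pass 1 DNA helix through another, stood on the same side: TOP2B was at 464 to 830.2 CPM (median 671) in CNP_IVM and 51.0 to 159 CPM (median 109.6) in GV oocytes, a log2 difference of 2.58. TOP2A was at medians of 266 CPM in CNP_IVM and 102 CPM in GV oocytes, a log2 difference of 1.43. Close copies may share reads, which was not tested for these families.

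**Figure D5:**
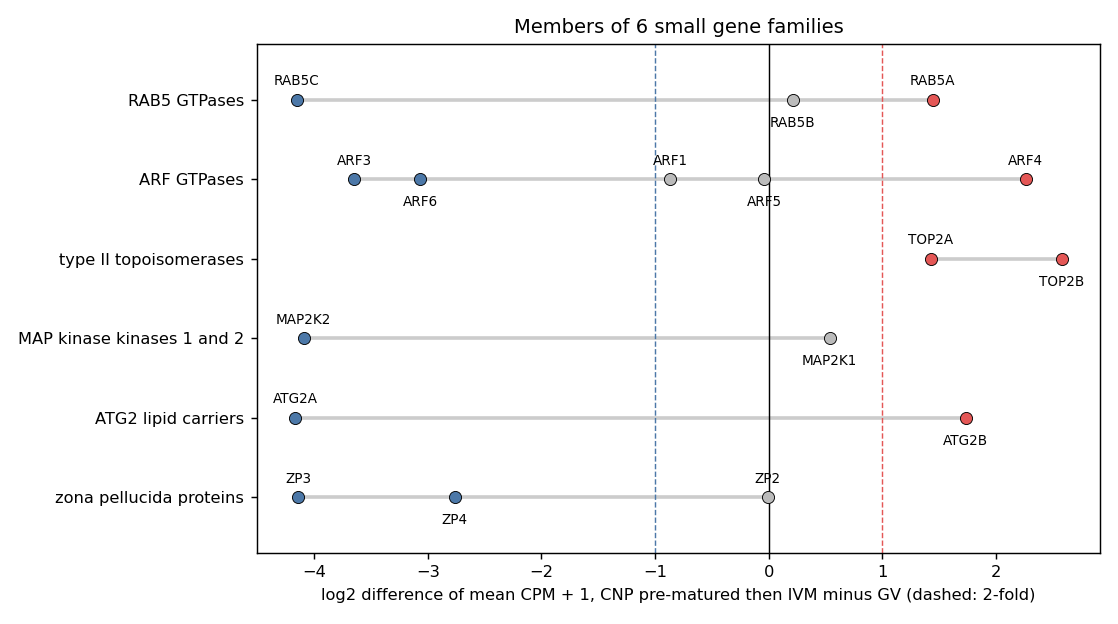
Log2 difference of mean CPM + 1 between CNP_IVM and GV oocytes for each member of 6 small gene families, with dashed lines at 2-fold lower and higher. The RAB5, ARF and ATG2 families span both dashed lines, whereas both type II topoisomerases lie beyond the higher one.

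Traffic and cytoskeleton genes followed, with single genes far out. Of 48 RAB GTPases, 6 lay at least 2-fold above GV, 16 at least 2-fold below and 26 in between, with a median log2 difference of -0.31 (0.25 with TMM and 0.41 with quantile normalization), while 8 lay above and 13 below with TMM, and 13 and 11 with quantile normalization. Of 54 genes of vesicle coats and secretion, 10 lay at least 2-fold above GV, 18 at least 2-fold below and 26 in between, with a median log2 difference of -0.26 (0.27 with TMM and 0.08 with quantile normalization). The coat subunit COPE was at medians of 18.1 CPM in CNP_IVM and 478 CPM in GV oocytes, a log2 difference of -4.61. Of 102 sorting and tethering genes, 22 lay at least 2-fold above GV, 49 at least 2-fold below and 31 in between, with a median log2 difference of -0.82, while 32 lay above and 39 below with TMM, and 38 and 32 with quantile normalization. The lower shares of these 3 lists lay on either side of the 42.0% of all genes. Of 54 actin genes, 15 lay at least 2-fold above GV, 17 at least 2-fold below and 22 in between, with a median log2 difference of -0.10 (0.00 without GV 9, 0.41 with TMM and 0.36 with quantile normalization), while 19 lay above and 13 below with TMM, and 19 and 11 with quantile normalization. ARPC1B, of the complex that branches actin filaments, was at 4.45 to 10.3 CPM (median 5.19) in CNP_IVM and 102 to 322 CPM (median 155) in GV oocytes, a log2 difference of -4.61. The scaffold IQGAP1 was at medians of 573 CPM in CNP_IVM and 123.4 CPM in GV oocytes, a log2 difference of 2.44. Of 39 genes of the unfolded protein response, 10 lay at least 2-fold above GV, 12 at least 2-fold below and 17 in between, with a median log2 difference of 0.05, while 15 lay above and 9 below with TMM, and 19 and 10 with quantile normalization. Its transcription factor XBP1 was at medians of 3.501 CPM in CNP_IVM and 77.5 CPM in GV oocytes, a log2 difference of -4.15.

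Summed markers of the cells around the oocyte had lower medians in CNP_IVM than in GV oocytes. Of 23 cumulus and granulosa markers in the table, 18 passed the filter, of which 2 lay at least 2-fold above GV, 10 at least 2-fold below and 6 in between, with a median log2 difference of -1.37 (-0.51 without GV 9 and -0.33 with quantile normalization). Without GV 9, 8 of the 18 lay at least 2-fold below, while all genes had a median of -0.53 and 40.5% below. Gene by gene this list was then near the background. Their sum over the markers in the table was 704 to 1371 CPM (median 842) in GV, 429 to 745 CPM (median 588) in IVM and 281 to 372 CPM (median 324) in CNP_IVM oocytes. Some markers stayed near 0: FSHR had at most 1.13 CPM in any GV and 0.360 CPM in any CNP_IVM oocyte, NR5A1 1.002 and 0.539 CPM, and CYP11A1 of theca and luteal cells 1.47 and 1.18 CPM. Others did not, as the highest GV oocyte had 59.7 CPM for INHA, 42.0 for FST, 74.4 for KRT8 and 185 for SERPINE2. Their GV medians were 2.52, 1.27, 1.90 and 58.4 CPM. The highest CNP_IVM values of these genes were 1.82, 7.99, 2.96 and 15.5 CPM. STAR, the cholesterol carrier of steroid cells, made most of the GV sum, at 78.6 to 117 CPM (median 90.8) in CNP_IVM and 547 to 844 CPM (median 629) in GV oocytes, a log2 difference of -2.79. HAS2, which makes the hyaluronan of cumulus expansion, was at 98.3 to 149.6 CPM (median 115) in CNP_IVM and 9.78 to 25.97 CPM (median 14.04) in GV oocytes, a log2 difference of 2.78. Endothelial markers summed to 273 to 506 CPM (median 404) in GV and 25.6 to 52.5 CPM (median 37.5) in CNP_IVM oocytes, mostly VWF and KDR. VWF was at 3.53 to 25.5 CPM (median 9.27) in CNP_IVM and 159.9 to 336 CPM (median 215) in GV oocytes, a log2 difference of -4.21. KDR was at medians of 11.3 CPM in CNP_IVM and 150.3 CPM in GV oocytes, a log2 difference of -3.80. TEK overlapped, at 13.4 to 21.8 CPM (median 16.5) in CNP_IVM and 6.08 to 32.6 CPM (median 18.9) in GV oocytes. The endothelial adhesion gene PECAM1 had at most 0.393 CPM in GV oocytes. So the endothelial sum of every CNP_IVM oocyte was below that of every GV oocyte. Blood and immune markers summed to 45.6 to 99.5 CPM (median 55.8) and 2.26 to 8.24 CPM (median 5.62). CD3E was at medians of 1.497 CPM in CNP_IVM and 26.1 CPM in GV oocytes, a log2 difference of -3.74, and CD68 at most 1.55 CPM in GV and 0 in CNP_IVM oocytes. Stromal markers summed to 9.996 to 35.7 CPM (median 23.8) and 5.32 to 14.5 CPM (median 7.32). RNA of other cells and RNA of the oocyte cannot be told apart in these libraries, and the part of other cells in the lower genes was not tested.

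Oocytes matured for 22 h without CNP were set against the same GV oocytes, so both comparisons share their GV values. In IVM against GV 1880 genes (15.9%) were at least 2-fold higher and 3917 (33.0%) lower, with a median of all genes of -0.28, and the counts of 8-fold or more were 10 higher and 652 lower. The lists stood side by side as follows. For nuclear complex I the medians were -3.02 in CNP_IVM and -2.41 in IVM against GV, for cytosolic ribosomal proteins -1.71 and -2.04, and for cohesin 1.69 and 1.24. For oocyte factors they were -0.79 and -0.12, and for the mitochondrial genome 2.56 and 0.41. Set directly against IVM, CNP_IVM oocytes had 220 genes (1.86%) at least 2-fold higher and 1754 (14.8%) lower, and all 13 mitochondrial genes were among the 220. These counts are by CPM alone and were not taken under another scaling. TMM factors were 0.77 to 0.87 in CNP_IVM and 0.83 to 1.24 in IVM oocytes, so the split may depend on the scaling. Of the genes apart from GV by 2-fold, the 10 with the largest direct difference and no overlap with IVM were RNF166, BCL2L12, ND3, ATP6, ND6, ABCG8, ADA, RNH1, KCNK1 and RND1.

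RNF166, a ubiquitin ligase, was at 12.5 to 107 CPM (median 50.3) in IVM, 2.08 to 4.96 CPM (median 3.25) in CNP_IVM and 35.5 to 183 CPM (median 56.8) in GV oocytes, a direct log2 difference of -3.61. IVM oocytes overlapped GV oocytes in it, and CNP_IVM oocytes overlapped neither. BCL2L12, a relative of apoptosis regulators, was at 6.11 to 40.2 CPM (median 19.9) in IVM, 0.252 to 4.48 CPM (median 2.02) in CNP_IVM and 41.0 to 85.8 CPM (median 53.5) in GV oocytes, a direct difference of -2.78. RND1, a GTPase that loosens actin, was at 54.1 to 194 CPM (median 133) in IVM, 21.4 to 26.9 CPM (median 23.6) in CNP_IVM and 91.7 to 367 CPM (median 134) in GV oocytes, a direct difference of -2.40. KCNK1, a potassium channel, was at 12.9 to 54.5 CPM (median 32.4) in IVM, 0.672 to 11.2 CPM (median 3.88) in CNP_IVM and 0.0545 to 46.7 CPM (median 9.78) in GV oocytes, so its IVM median was above that of either other group. ADA, adenosine deaminase, was at 0.788 to 17.1 CPM (median 2.85) in IVM, 0 to 0.168 CPM (median 0) in CNP_IVM and 0 to 75.5 CPM (median 47.8) in GV oocytes, and the GV oocyte at 0 was GV 9. RNH1, the ribonuclease inhibitor, was at 1.17 to 11.8 CPM (median 3.75) in IVM, 0 to 0.893 CPM (median 0) in CNP_IVM and 38.5 to 91.6 CPM (median 59.7) in GV oocytes. ABCG8, a sterol transporter, was at 6.99 to 56.8 CPM (median 15.8) in IVM, 1.81 to 4.22 CPM (median 3.03) in CNP_IVM and 55.5 to 151 CPM (median 64.1) in GV oocytes. For the last 3 the IVM oocytes lay between the others by median. ATP6, the mitochondrial subunit of ATP synthase, was at 147 to 830.3 CPM (median 259) in IVM, 982 to 3999 CPM (median 1609) in CNP_IVM and 182 to 389 CPM (median 239) in GV oocytes, a direct difference of 2.57. ND3 was at 14.8 to 84.9 CPM (median 29.6) in IVM, 89.3 to 647 CPM (median 171) in CNP_IVM and 23.2 to 62.6 CPM (median 35.8) in GV oocytes, a direct difference of 2.68. IVM oocytes were near the GV level for both. Some meiosis genes stood nearer to GV after IVM than after CNP_IVM: the log2 difference of CCNB2 was -0.50 in IVM and -1.41 in CNP_IVM, and that of CDK1 -1.03 and -1.88. PADI6 stood at -0.84 in IVM and -3.81 in CNP_IVM, and NOBOX at -1.69 and -3.43. BMP15 went the other way, at 1.56 in IVM and 0.67 in CNP_IVM. CCNB1 ranged from 2282 to 3000 CPM in IVM, 1959 to 2453 CPM in CNP_IVM and 809.7 to 1458 CPM in GV oocytes.

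The 7 CNP_IVM oocytes were alike over most genes and unlike in a few. Their rank correlations across genes were 0.93 to 0.96, against 0.71 to 0.76 with GV oocytes other than GV 9 and 0.86 to 0.95 with IVM oocytes. The median coefficient of variation over 5342 genes was 24.9% in CNP_IVM, 29.6% in IVM and 29.7% in GV oocytes, or 17.6% without GV 9. Leaving out any 1 of the 14 oocytes gave 1763 to 1861 higher and 4796 to 5036 lower genes, and the lowest count on each side was the one without GV 9. Of the 6 lists plotted by oocyte the mitochondrial genome varied most among them: its highest CNP_IVM oocyte had 30207 CPM and its lowest 7908 CPM, while the nuclear complex I sum ran from 2316 to 3386 CPM. All 7 lay above every GV oocyte in the mitochondrial sum and below every GV oocyte in the complex I sum, so the direction was shared and the size of the mitochondrial difference was not.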

How the data were processed

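RNA of single cattle oocytes was primed on poly(A) and amplified (SMART-Seq v4), made into Nextera XT libraries and read on a HiSeq X, per the labels' protocols. The authors deposited 1 table of CPM (counts-per-million of each library's reads), with 1 column per oocyte, although its name speaks of TPM: 100% of its values are whole reads within 0.01 read of 1 step per column, the same for every gene. The aligner HISAT2 2.2.1, the counter featureCounts 2.0.1, Trim Galore 0.6.7, edgeR and FastQC stand in the submitters' processing notes with no order or role. The mouse build named there sits beside cattle gene symbols, so no coordinates are given. By symbol 13356 of 13502 names matched current and 41 older RefSeq cattle symbols (ARS-UCD2.0), and 105 did not match.

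Groups come from the sample titles. Genes with at least 1 CPM in 6 of 22 columns were kept, a pseudocount of 1 CPM was added to group means, and a log2 difference of 1 counted as 2-fold. No oocyte is tied to an animal or culture, so each group counts as 1 sample, and neither a count test on the recovered reads nor any other was made. Oocytes of a group differed far beyond the counting of reads (lowest chi-square per degree of freedom 38.0), so none was counted as a copy of another. Members and lists were chosen with earlier results of these data known. Genes were named by rule: the 12 highest and 12 lowest with a symbol, a mean of 10 CPM in either group and no overlap, up to 4 per list (2 per direction) past 2-fold with that mean, the 10 with the largest difference from IVM, the mitochondrial genes and 14 fixed genes (AZIN1, BMP15, BTG4, CCNB1, GDF9, GPR3, HAS2, MOS, NPPC, NPR2, PDE3A, PDE5A, STAR and ZP3). The other named genes, among them UBB, GSTM3, CCNB2, CDK1, WEE2, AURKA, FBXO5, ODC1, CNOT7, RAD21, ESCO2, SGO2, TFAM, POLRMT, EIF4E1B, GAPDH, LDHA, BUB3, PRKG1, ZP2, ZP4, NLRP5, TLE6, PADI6, NOBOX and the members of small families, were chosen after their values were seen. Some genes that the rule names are not reported here. Alternatives were leaving out GV 9 or any oocyte, pseudocounts of 0.1 and 5 CPM, no filter or 10 CPM, TMM factors on recovered reads (edgeR 4.0.16, R 4.3.3), nuclear genes alone, quantile normalization, group medians and means of log2 values. Computing used Python 3.11.15, numpy 2.4.6, pandas 2.3.3, scipy 1.17.1 and matplotlib 3.10.9, and the calculations were tested on simulated data.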

Additional observations from a re-analysis of the deposited data

Results flagged for a closer look

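For each gene named in the text, apart from some cell markers, and for each list summed by oocyte, the highest and lowest of the 7 oocytes of a group were set against the other 6. In 68 of 404 such groups of values (16.8%) 1 oocyte stood far from the rest by Dixon's criterion. The genes were chosen from the same data and measured in the same oocytes, so this share is a description, with no chance rate beside it. GV 9 was that oocyte in 50 (12.4%). Its title says GV and its treatment label in vitro maturation, and which of the 2 holds was not tested.

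Among oocyte and meiosis genes GV 9 was the highest GV oocyte for MOS at 4283 CPM (the others at 1422 to 1934 CPM), AURKA at 9106 CPM (the others at 5826 to 6819.6 CPM), ZP3 at 8420.4 CPM (the others at 1530.3 to 3738 CPM), PADI6 at 862 CPM (the others at 148 to 267 CPM) and EIF4E1B at 954 CPM (the others at 245 to 389.8 CPM). Also high were CDC25A at 87.9 CPM (the others at 22.3 to 42.5 CPM), GJA4 at 972 CPM (the others at 31.6 to 90.4 CPM) and GPR3 at 18.1 CPM (the others at 2.59 to 8.88 CPM). Among the same genes it was the lowest for PTTG1 at 1301 CPM (the others at 8029.8 to 11580.4 CPM), OOSP2 at 387 CPM (the others at 1499 to 1867 CPM), DPPA3 at 648 CPM (the others at 1352 to 1864 CPM), TPX2 at 236 CPM (the others at 586 to 782 CPM) and DAZL at 0.218 CPM (the others at 19.8 to 31.5 CPM). Also low were AZIN1 at 0.163 CPM (the others at 15.4 to 19.5 CPM), BUB1B at 8.37 CPM (the others at 67.5 to 89.0 CPM), KNL1 at 1.63 CPM (the others at 56.2 to 80.9 CPM), RAD21 at 22.2 CPM (the others at 56.7 to 81.3 CPM) and ESCO2 at 72.0 CPM (the others at 173 to 222 CPM). Of RNA and chromatin genes the low ones were CNOT6L at 18.7 CPM (the others at 38.0 to 50.2 CPM), DCP1A at 0 CPM (the others at 15.3 to 22.2 CPM), EXOSC4 at 101.0 CPM (the others at 238 to 293 CPM), EIF4A2 at 17.1 CPM (the others at 131 to 206 CPM) and IARS1 at 0 CPM (the others at 22.3 to 27.7 CPM). Also low were MED13 at 0.218 CPM (the others at 7.37 to 11.8 CPM), SNRPF at 291 CPM (the others at 531 to 707 CPM), DNMT1 at 37.3 CPM (the others at 194 to 242 CPM), LIG4 at 2.18 CPM (the others at 6.95 to 10.05 CPM) and PCNA at 57.1 CPM (the others at 796 to 978 CPM). Of genes of mitochondria and metabolism it was high for COX2 at 442 CPM (the others at 111 to 204 CPM), SDHA at 274 CPM (the others at 21.96 to 48.7 CPM), POLDIP2 at 354 CPM (the others at 176 to 204 CPM), ACSL3 at 165 CPM (the others at 66.6 to 83.1 CPM) and SLC25A11 at 304 CPM (the others at 50.6 to 109.8 CPM). Also high was ABCG8 at 151 CPM (the others at 55.5 to 71.7 CPM). Its low values there were OPA1 at 20.8 CPM (the others at 122.7 to 170.1 CPM), TIMM17B at 252 CPM (the others at 672 to 930.1 CPM), LDHB at 139 CPM (the others at 284 to 345 CPM) and SLC44A5 at 0.109 CPM (the others at 15.4 to 19.95 CPM). In signalling, traffic and other genes the high values were ATG2A at 140.5 CPM (the others at 3.59 to 37.9 CPM), ARF1 at 697 CPM (the others at 193 to 315 CPM), COPE at 1209.9 CPM (the others at 368 to 537 CPM), MAP2K2 at 165 CPM (the others at 19.9 to 58.6 CPM) and RND1 at 367 CPM (the others at 91.7 to 169.7 CPM). Also high were RNF166 at 183 CPM (the others at 35.5 to 80.4 CPM), BCL2L12 at 85.8 CPM (the others at 41.0 to 54.3 CPM), TUBB4B at 707 CPM (the others at 237 to 409 CPM), SMAD6 at 29.1 CPM (the others at 19.2 to 22.9 CPM) and CD3E at 64.7 CPM (the others at 10.5 to 31.2 CPM). Low in this set were AKAP11 at 5.18 CPM (the others at 39.3 to 59.0 CPM) and ACVR1 at 3.84 CPM (the others at 27.5 to 40.9 CPM). GV 9 thus lay on no single side of the other 6.

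Other oocytes stood apart in single genes of their group. CNP_IVM replicate 1 was the highest for ADCY5 at 3.33 CPM (the others at 0 to 0.998 CPM), MOS at 1627 CPM (the others at 523 to 937 CPM), SPRING1 at 31.7 CPM (the others at 5.68 to 15.99 CPM) and TMEM11 at 9.48 CPM (the others at 2.13 to 5.29 CPM). CNP_IVM replicate 2 was the highest for HSP90B1 at 1246 CPM (the others at 657 to 911 CPM), ND3 at 647 CPM (the others at 89.3 to 310.4 CPM) and ND6 at 449 CPM (the others at 108 to 225 CPM) and the lowest for PRDX2 at 195 CPM (the others at 335 to 366 CPM). CNP_IVM replicate 4 was the highest for ENO1 at 20.9 CPM (the others at 2.41 to 8.99 CPM). CNP_IVM replicate 5 was the highest for CCDC68 at 76.4 CPM (the others at 2.38 to 8.37 CPM), GSTM3 at 981 CPM (the others at 499 to 688 CPM) and RAB5A at 54.0 CPM (the others at 24.3 to 36.9 CPM). CNP_IVM replicate 6 was the highest for ARPC1B at 10.3 CPM (the others at 4.45 to 6.90 CPM). CNP_IVM replicate 7 was the highest for ADA at 0.168 CPM (all 6 others at 0 CPM) and SEPSECS at 98.8 CPM (the others at 49.8 to 65.2 CPM) and the lowest for ANAPC13 at 19.6 CPM (the others at 28.3 to 34.7 CPM). GV replicate 1 was the highest for STAG1 at 7.49 CPM (the others at 3.63 to 5.04 CPM). GV replicate 2 was the highest for ATP5PB at 201 CPM (the others at 108 to 146 CPM).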

How the results depend on the processing

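With CPM 1818 genes were at least 2-fold higher and 4977 lower, of which 1302 and 3211 did not overlap between groups. Higher genes numbered 3012 with TMM factors and 3540 with quantile normalization, and those without overlap 2261 and 2498. Lower genes numbered 3196 with quantile normalization and 3009 where at least 10 CPM was asked, a filter that leaves fewer genes, and those without overlap 2102 with quantile normalization. Under pseudocounts of 0.1 and 5 CPM, no filter, nuclear genes alone, group medians, means of log2 values and without GV 9 these 4 counts stayed within 1.5 times. Leaving out each oocyte in turn gave 1763 to 1861 higher, 4796 to 5036 lower, 1305 to 1403 higher without overlap and 3233 to 4044 lower without overlap, the last highest without GV 9. Of the genes named, BTG4, CCNB2, GDF9, GPR3, KCNK1, MOS, POLRMT, PRKG1, PTTG1, RPL22L1 and UQCRH were past 2-fold and came under it in at least 1 alternative. Medians of lists past 2-fold came under it in at least 1 alternative for respiratory assembly factors, mitochondrial import, mitochondrial dynamics, translation factors, proteasome, selenoproteins, peroxide and superoxide enzymes, fatty acid oxidation and histones, and for the marker lists of cumulus, immune, endothelial and stromal cells. Beside the values in the report, selenoproteins stood at -0.24 and peroxide enzymes at -0.83 where at least 10 CPM was asked, and blood and immune markers at -0.79 and endothelial markers at -0.79 with no filter. Among the genes, MOS stood at -0.64 with TMM, GPR3 at -0.06, KCNK1 at -0.63 and POLRMT at -0.41 with quantile normalization, and PRKG1 at 0.99 with 5 CPM. The cause of these shifts was not tested. No paired analysis was possible because no result comes from a test and a replicate number only names an oocyte. Protein length and promoter composition by side were not run, as the tables used here hold no sequence.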

Other observations

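Further gene groups were measured in the same oocytes, against the 15.3% of all genes on the higher and the 42.0% on the lower side. Of 219 solute carriers, which move ions, sugars, amino acids and nucleotides across membranes, 28 lay at least 2-fold above GV, 97 at least 2-fold below and 94 in between, with a median log2 difference of -0.75 (0.06 with quantile normalization), while 47 lay above and 69 below with TMM, and 68 and 51 with quantile normalization. SLC20A1, a phosphate importer, was at 456 to 604 CPM (median 528) in CNP_IVM and 90.4 to 195 CPM (median 112) in GV oocytes, a log2 difference of 2.05. SLC44A5, of the choline transporter-like family, was at medians of 85.3 CPM in CNP_IVM and 17.7 CPM in GV oocytes, a log2 difference of 2.36. SLC25A11, which exchanges oxoglutarate for malate over the inner mitochondrial membrane, was at 1.54 to 8.005 CPM (median 4.37) in CNP_IVM and 50.6 to 304 CPM (median 80.6) in GV oocytes, a log2 difference of -4.36. SLC16A13, of the monocarboxylate carriers, was at medians of 1.36 CPM in CNP_IVM and 36.8 CPM in GV oocytes, a log2 difference of -4.34. The lower side held the larger differences, as among all genes. Of 45 genes that build N-glycans and GPI anchors, 8 lay at least 2-fold above GV, 21 at least 2-fold below and 16 in between, with a median log2 difference of -0.87 (0.06 with quantile normalization). DPM1, which makes the mannose donor of both pathways, was at 226 to 397 CPM (median 266) in CNP_IVM and 47.9 to 109 CPM (median 94.4) in GV oocytes, a log2 difference of 1.80. PIGC, of the enzyme that starts the GPI anchor, was at 0.793 to 7.65 CPM (median 4.48) in CNP_IVM and 114 to 232 CPM (median 214) in GV oocytes, a log2 difference of -5.06. So the donor and the first enzyme of the anchor stood on opposite sides.

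Of 48 genes of the TGF-beta and EGF pathways, through which the oocyte and its follicle signal, 10 lay at least 2-fold above GV, 12 at least 2-fold below and 26 in between, with a median log2 difference of 0.02, while 21 lay above and 10 below with TMM, and 21 and 9 with quantile normalization. ACVR1, a type I receptor of the BMP branch, was at 81.7 to 157 CPM (median 104) in CNP_IVM and 3.84 to 40.9 CPM (median 31.8) in GV oocytes, a log2 difference of 1.92. SMAD6, an inhibitor of that branch, was at 1.48 to 2.67 CPM (median 1.95) in CNP_IVM and 19.2 to 29.1 CPM (median 20.4) in GV oocytes, a log2 difference of -2.94. In every CNP_IVM oocyte the receptor lay above and the inhibitor below the GV range. Of 27 apoptosis genes, 5 lay at least 2-fold above GV, 11 at least 2-fold below and 11 in between, with a median log2 difference of -0.23 (0.24 with TMM and 0.81 with quantile normalization), while 11 lay above and 9 below with TMM, and 10 and 9 with quantile normalization. APAF1, the platform that activates caspases after cytochrome c release, was at 158 to 206 CPM (median 174) in CNP_IVM and 36.4 to 67.7 CPM (median 51.1) in GV oocytes, a log2 difference of 1.80. BIRC6, a large inhibitor of apoptosis, was at medians of 106.3 CPM in CNP_IVM and 30.1 CPM in GV oocytes, a log2 difference of 1.90. BID, which carries the death receptor signal to mitochondria, was at 0.864 to 2.72 CPM (median 1.48) in CNP_IVM and 51.5 to 110.1 CPM (median 74.7) in GV oocytes, a log2 difference of -4.81. FADD, the adaptor of death receptors, was at medians of 1.44 CPM in CNP_IVM and 53.5 CPM in GV oocytes, a log2 difference of -4.76. So APAF1 and BIRC6 lay high, and BID and FADD low. The shares of the whole list, 18.5% higher and 40.7% lower, were near the 15.3% and 42.0% of all genes.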
